A study of Mus musculus with 10 samples.

Results

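*Krt19*, *Krt8*, *Krt18*, *Krt7*, *Sox9*, *Spp1* and *Epcam*, keratin genes and marker genes of the bile duct lining, were followed in liver RNA of germ-free (GF) mice given microbiota-derived extracellular vesicles (MEV) or PBS. These 7 genes were selected by name with the difference between MEV and PBS livers in view, *Krt19* because it had risen, and the question was whether its rise went with the other biliary genes. Differences of the 7 genes between the groups were therefore those the choice rested on, and they are given as descriptions with no test. Of the 7 genes, 5 had a row among the 12148 genes of the count table. *Krt7* and *Epcam* had no row in the table used here and were not analysed. A missing row sets no upper limit on a gene's level, since how genes were kept in the table is not fully known.

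The 10 livers came from wild-type GF C57BL/6 mice, 1 library per mouse. The 5 GF+MEV mice, labelled EV, took 80 μg of MEV in PBS by mouth, 2 doses per week for 3 weeks, and the 5 GF+PBS mice took PBS alone on the same schedule. MEV are vesicles shed by gut bacteria, purified here from the gut content and stool of control animals, and GF mice have no gut bacteria that would make their own. The age and sex of the GF mice are not given in the sources used here. RNA was taken from whole liver, in which duct cells are a small minority beside hepatocytes, and in such bulk samples fewer cells of a type and less RNA per cell cannot be told apart.

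Keratins are the intermediate filament proteins of epithelial cells, and each filament pairs an acidic type I with a basic type II chain. Hepatocytes make mainly the pair of keratin 8 (type II) and keratin 18 (type I), while cholangiocytes, the epithelial cells of the bile ducts, add keratin 7 (type II) and keratin 19 (type I). SOX9 is a transcription factor of duct cells and of hepatocytes that take on duct features, osteopontin (*Spp1*) is a secreted phosphoprotein made by cholangiocytes among other cells, and EPCAM is an adhesion molecule on the surface of cholangiocytes.

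Library totals were 15746119 to 20523649 gene reads for GF+MEV (median 16770711) and 16140770 to 19733387 for GF+PBS (median 17104805). Levels are given below as CPM, the reads of a gene per 1000000 reads of its library after edgeR's TMM scaling. GF+MEV replicate 2 had the lowest TMM factor, 0.890, against 0.978 to 1.04 in the other libraries, and it stood apart from its group. Its chi-square values per gene against the other GF+MEV libraries were 135 to 176, where those libraries gave 8.22 to 21.4 among themselves. *CT010467.1*, annotated as ribosomal RNA, *Gm23935* and *Lars2* held 9.24% of its reads and 0.153% to 0.409% of the reads in the other 9 libraries. Without these 3 genes its chi-square values were 13.4 to 22.7, beside 7.76 to 21.3 for the other GF+MEV pairs. Values without it are also given for the members, the called genes, the genes nearest to *Krt19* and *Tnfrsf12a*, where they were highest in this library. Within GF+PBS, replicates 1 and 3, and 4 and 5, were the most alike, with chi-square values per gene of 6.36 and 7.20 where the other pairs of that group gave 8.57 to 25, and all pairs differed by more than sampling noise. Hepatocyte genes dominated, with *Alb*, which encodes albumin, at 64586 to 83247 CPM over the 10 livers. Across all 12147 genes tested with edgeR's quasi-likelihood test, 928 (7.64%) passed a Benjamini-Hochberg adjusted p of 0.05, and the median log2 fold change was -0.00371. An unadjusted edgeR p under 0.05 was reached by 2572 of these genes.

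*Krt19* stood apart from the other members. The gene (ENSMUSG00000020911) lies on the minus strand of chromosome 11 of GRCm38 from 100140810 to 100148665. Its level in GF+MEV livers was 5.67, 16.8, 8.21, 9.32 and 0.964 CPM in replicates 1 to 5. In GF+PBS livers it was 0.50, 0.504, 0.714, 0.303 and 0.781 CPM. The groups did not overlap, but GF+MEV replicate 5 was only just above the highest GF+PBS liver, and replicate 2 was the highest of all. In reads, these levels came from 93, 244, 170, 166 and 15 in GF+MEV livers against 9, 9, 12, 6 and 13 in GF+PBS livers. GF+MEV replicate 5 thus held 15 reads where the highest GF+PBS liver held 13.

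Summed over the groups, 688 reads of *Krt19* in GF+MEV (95% Poisson interval 638 to 741, counting error only) stood beside 49 in GF+PBS (36.3 to 64.8). The mean level was 8.20 ± 5.80 CPM (SD, n = 5) in GF+MEV and for GF+PBS livers 0.560 ± 0.190 CPM (SD, n = 5). The log2 fold change was 3.87 (standard error 0.70), a level 14.6 times as high, and 1 of the tested genes had a larger absolute log2 fold change. It was 3.45 without GF+MEV replicate 2 and ran from 3.44 to 4.15 over 19 other ways of fitting the data. None of the 50-base stretches of its annotated transcripts occurs in an annotated transcript of another gene.

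**Figure D1:**
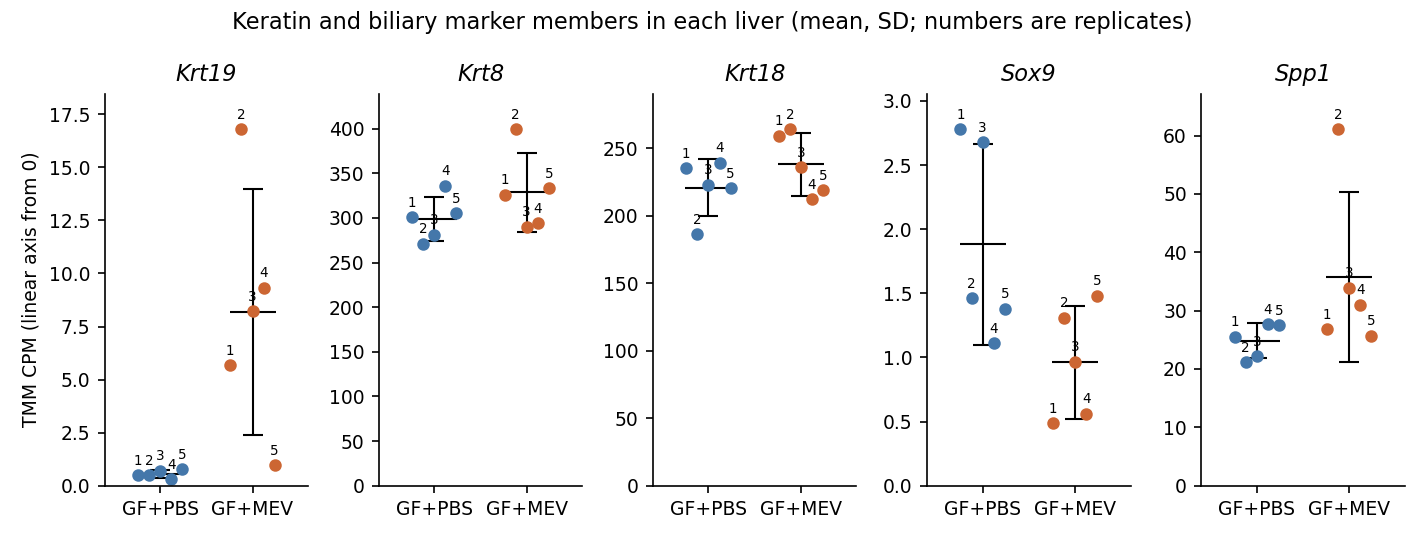
TMM CPM of the 5 members with counts in each of 5 GF+PBS (blue) and 5 GF+MEV (orange) livers, on linear axes from 0, with replicate numbers beside the points, the mean (horizontal line) and SD (bars). *Krt19* is at most 0.781 CPM in GF+PBS livers and reaches 16.8 CPM in GF+MEV replicate 2, while in the other 4 genes the groups overlap.

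*Krt8* and *Krt18*, the keratin pair that hepatocytes share with duct cells, were far more abundant and lay close together in both groups. They are neighbours on chromosome 15 of GRCm38, 23.7 kb apart and transcribed away from each other, *Krt8* (ENSMUSG00000049382) on the minus strand from 101996698 to 102004482 and *Krt18* (ENSMUSG00000023043) on the plus strand from 102028180 to 102032027. Their start regions are shown because the levels of these genes stayed near a ratio of 1 in all livers. Each sequence runs from 250 bases before to 50 bases after the start given by RefSeq on GRCm38.p6. The regions are chr15:102004293-102004592 (minus strand) for *Krt8* and chr15:102027966-102028265 (plus strand) for *Krt18*. For both genes this start lies inside the gene bounds given above, which come from GENCODE, so part of the 250 bases is within those bounds. Capitals mark the letters TATAA, or their reverse complement.

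Krt8: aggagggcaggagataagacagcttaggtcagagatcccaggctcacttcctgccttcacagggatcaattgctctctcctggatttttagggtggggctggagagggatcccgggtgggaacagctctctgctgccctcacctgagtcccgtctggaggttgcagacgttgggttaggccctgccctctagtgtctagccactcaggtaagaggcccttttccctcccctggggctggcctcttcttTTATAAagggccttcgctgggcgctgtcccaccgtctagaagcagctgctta

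Krt18: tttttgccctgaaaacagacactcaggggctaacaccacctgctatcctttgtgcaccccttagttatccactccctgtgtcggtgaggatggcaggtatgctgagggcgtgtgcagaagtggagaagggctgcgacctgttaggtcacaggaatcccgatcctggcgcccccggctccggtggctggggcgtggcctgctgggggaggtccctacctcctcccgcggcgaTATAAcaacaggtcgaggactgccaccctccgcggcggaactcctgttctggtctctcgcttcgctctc

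Both sequences hold the letters TATAA once in the direction of transcription, and in *Krt8* the reverse complement TTATA overlaps them, so that 6 letters stand in capitals there. On either strand the letters occur in 24.9% of the 32851 start regions of the same length in that table. A match of letters is a description and not a binding site. Of the 7 genes, 5 had an entry there, and *Krt19* and *Sox9* had none.

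The level of *Krt8* was 326, 399.5, 290.1, 294 and 333 CPM in the 5 GF+MEV livers and 301, 271, 281, 336 and 305 CPM in the 5 GF+PBS livers. *Krt18* was at 259, 264, 236, 212 and 219 CPM in GF+MEV livers and at 235, 186, 223, 239 and 220.1 CPM in GF+PBS livers. For both genes the groups overlapped, and GF+MEV replicate 2, the liver highest in *Krt19*, was highest here too. *Krt8* had means of 329 ± 44.0 and 299 ± 25.1 CPM (SD, n = 5 each), with a difference on the log2 scale of 0.14 (standard error 0.099). *Krt18* had means of 238 ± 23.1 and 221 ± 20.7 CPM (SD, n = 5 each), with a difference on the log2 scale of 0.11 (standard error 0.089). The difference for either gene was of the size of the spread between livers, and without GF+MEV replicate 2 it was 0.06 for *Krt8* and 0.07 for *Krt18*.

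Per kilobase of exon, the pair stood at nearly equal levels, the type I chain beside its type II partner. The ratio of *Krt18* to *Krt8*, in CPM per kb, was 0.898 to 1.11 in GF+MEV livers (mean 0.993 ± 0.0991, SD, n = 5) and 0.937 to 1.08 in GF+PBS livers (mean 1.01 ± 0.0614, SD, n = 5). On the same scale the mean levels of *Krt8*, *Krt18* and *Krt19* were 168, 166 and 4.42 CPM per kb in GF+MEV livers and 153, 154 and 0.302 CPM per kb in GF+PBS livers. *Krt19* therefore made up a small share of these 3 keratins, 0.161% to 2.29% in GF+MEV livers (median 1.40%) and 0.0484% to 0.136% in GF+PBS livers (median 0.101%). Of the 50-base stretches of the *Krt8* transcript, 29.7% also occur in its pseudogene *Krt8-ps* or in Gm36026, whose exons overlap it on the other strand. Reads on *Krt8-ps* gave 1.40 ± 0.320 CPM in GF+MEV livers and 1.18 ± 0.414 CPM in GF+PBS livers (SD, n = 5 each), and Gm36026 had no row in the table used here.

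*Sox9* differed in the direction opposite to *Krt19*. The gene (ENSMUSG00000000567) lies on the plus strand of chromosome 11 from 112782224 to 112787760. In GF+MEV livers it was at 0.488, 1.31, 0.966, 0.561 and 1.48 CPM, from 8, 19, 20, 10 and 23 reads. In GF+PBS livers it was at 2.78, 1.46, 2.68, 1.11 and 1.38 CPM, from 50, 26, 45, 22 and 23 reads. GF+PBS replicates 1 and 3 were above all other livers, and the remaining GF+PBS livers lay inside the GF+MEV range. The means were 0.961 ± 0.440 and 1.88 ± 0.784 CPM (SD, n = 5 each), with a difference on the log2 scale of -0.98 (standard error 0.38). Without GF+PBS replicates 1 and 3, an alternative chosen after the values were seen, it was -0.47. GF+MEV replicate 5, lowest of its group in *Krt19*, was highest in *Sox9*.

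*Spp1* (ENSMUSG00000029304), on the plus strand of chromosome 5 from 104435118 to 104441050, was of the other members the one whose profile was most like that of *Krt19*. It was at 26.8, 61.1, 33.9, 31.0 and 25.7 CPM in GF+MEV livers and at 25.5, 21.2, 22.2, 27.7 and 27.5 CPM in GF+PBS livers. GF+MEV replicates 2, 3 and 4 were above all GF+PBS livers, and replicates 1 and 5 were within their range. The same 3 livers were the highest in *Krt19*. The means were 35.7 ± 14.6 and 24.8 ± 3.0 CPM (SD, n = 5 each), with a difference on the log2 scale of 0.52 (standard error 0.24), which was 0.25 without GF+MEV replicate 2. Exons of *Spp1* overlap those of Gm42793 on the same strand, which had no row in the table used here.

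Set side by side, the 5 members did not move as a block. *Krt19* was called higher by the fit over all genes, as were 4.12% of all tested genes, and the other 4 members were not called in either direction, where 3.52% of all genes were called lower. The groups did not overlap in 1 member, *Krt19*, and in 7.39% of all genes. Because the genes were chosen on this contrast, these counts carry no weight as evidence about the members.

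Likeness to *Krt19* was measured as the root mean square (RMS) difference between log2 CPM profiles over the 10 livers, each centred on its own mean. By that measure, among the 12146 other genes, *Spp1* ranked 259 (RMS 1.61), *Krt18* 2420 (RMS 1.83), *Krt8* 2645 (RMS 1.83) and *Sox9* 12066 (RMS 2.38). For scale, *Yap1* was nearly level, at 59.7 to 65.5 CPM in GF+MEV and 61 to 65.3 CPM in GF+PBS livers, and had an RMS of 1.88. An RMS near that value thus holds little likeness, whatever the rank. The 5 nearest genes were *Lpin1* (RMS 0.802), *Zbtb16* (0.836), *AA986860* (0.874), *Tff3* (0.880) and *Btg2* (0.992), none of them a keratin. *Lpin1* encodes the phosphatidate phosphatase lipin 1, *Zbtb16* a zinc finger transcription factor, *Tff3* a trefoil peptide secreted by mucus-producing epithelia, and *Btg2* an antiproliferative protein. In all 5 the groups did not overlap. Their log2 fold changes were 3.0, 3.30, 2.7, 2.33 and 2.56 in that order. Being close to a gene chosen on this contrast, they had to differ between the groups, so no test is given for them.

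*Tff3* was at 2.56, 5.31, 6.52, 6.18 and 1.61 CPM in GF+MEV livers and at 0.611, 1.06, 0.774, 0.960 and 1.02 CPM in GF+PBS livers. *Lpin1* was at 433, 675, 609.6, 562 and 320.4 CPM in GF+MEV livers and at 46.0 to 81.5 CPM in GF+PBS livers. *Zbtb16* was at 15.8, 63.6, 31.4, 18.6 and 18.7 CPM in GF+MEV and at 1.55 to 4.03 CPM in GF+PBS livers. *AA986860* was at 4.94, 8.35, 5.6, 5.84 and 4.05 CPM in GF+MEV and at 0.389 to 1.37 CPM in GF+PBS livers. Replicate 2 was the highest GF+MEV liver for *Krt19*, *Lpin1*, *Zbtb16* and *AA986860*, and replicate 5 the lowest for *Krt19*, *Lpin1*, *AA986860* and *Tff3*. Without replicate 2 the log2 fold changes of *Lpin1*, *Zbtb16* and *AA986860* were 2.90, 2.82 and 2.54.

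**Figure D2:**
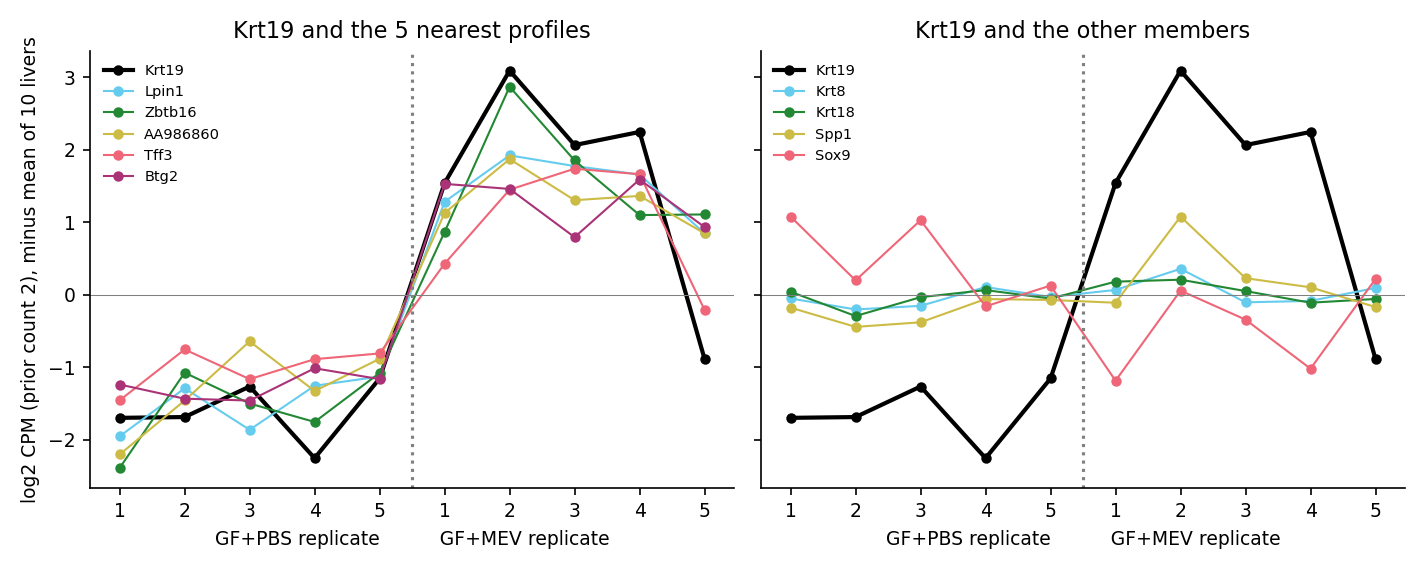
Log2 CPM (prior count 2), each gene centred on its mean over the 10 livers, for *Krt19* and its 5 nearest genes (left) and for *Krt19* and the other members (right). Lines only join points of 1 gene, since replicates have no order. The nearest genes step up between GF+PBS and GF+MEV livers, *Krt8* and *Krt18* stay flat, *Spp1* peaks in GF+MEV replicate 2, and *Sox9* is highest in GF+PBS replicates 1 and 3.

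Further genes listed as markers of the bile duct gave a mixed picture. Whether their RNA in whole liver came from duct cells or from other cells, such as hepatocytes, was not tested. Of a list of 30, 16 were in the table, of which 2 were called higher, 1 lower and 13 not called (18.8% called, where 7.64% of all tested genes were), with a median log2 fold change of 0.09. *Cdh1*, the adhesion molecule E-cadherin, rose (41.8 ± 4.14 against 32.8 ± 2.28 CPM, SD, n = 5 each, log2 fold change 0.35, edgeR adjusted p = 0.0118) without overlap between the groups. *Atp1b1*, the beta subunit of the sodium pump, rose by 0.34 on the log2 scale (edgeR adjusted p = 0.0248), and its exons overlap those of *Nme7* on the other strand. *Cldn3*, a tight junction claudin, fell from 134 ± 13.9 to 105 ± 11.6 CPM (SD, n = 5 each, log2 fold change -0.35, edgeR adjusted p = 0.0225). These changes were at most 0.35 in size on the log2 scale, beside 3.87 for *Krt19*, and *Cdh1* was not called with library size alone as the scaling (edgeR adjusted p = 0.0761).

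Several defining duct genes of that list did not pass the test. *Pkhd1*, which encodes the cilium protein fibrocystin, was at 5.78 ± 0.563 CPM in GF+MEV and 5.36 ± 0.811 CPM in GF+PBS livers (SD, n = 5 each, edgeR adjusted p = 0.666). *Slc10a2*, the bile acid transporter on the duct cell surface, was at 10.4 ± 1.19 and 9.24 ± 1.11 CPM (edgeR adjusted p = 0.418), and *Cd24a*, a surface protein of duct and progenitor cells, at 2.42 ± 0.842 and 1.78 ± 0.111 CPM (edgeR adjusted p = 0.283). The most abundant gene of the list without a call was *Dsg2*, a desmosomal cadherin, at 118 ± 8.35 and 112 ± 15.8 CPM. Summed over the 16 genes, the level was 662 to 749 CPM in GF+MEV livers and 668 to 705 CPM in GF+PBS livers. The sum rested on abundant genes such as *Cldn3* and *Dsg2*, with means of 119 and 115 CPM over the 10 livers. *Pkhd1* and *Cd24a* had means of 5.57 and 2.1 CPM, and a change in genes that low would hardly show in the sum. *Cftr*, *Cldn4*, *Cldn7*, *Muc1*, *Prom1* and *Sctr* were among the 14 with no row in the table used here. *Pkhd1*, *Slc10a2* and *Cd24a* were picked with their values known. The number called was 1 in place of 3 without GF+MEV replicate 2 or without GF+PBS replicate 3, with *Cldn3* at an edgeR adjusted p of 0.0602 and 0.0557 and *Atp1b1* at 0.0503 and 0.0653. *Cldn3* also lost its call without GF+MEV or GF+PBS replicate 4 (edgeR adjusted p = 0.0523 and 0.0594), and *Atp1b1* without GF+MEV replicate 1 or 3 or GF+PBS replicate 1 (edgeR adjusted p = 0.0502 to 0.0528).

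**Figure D3:**
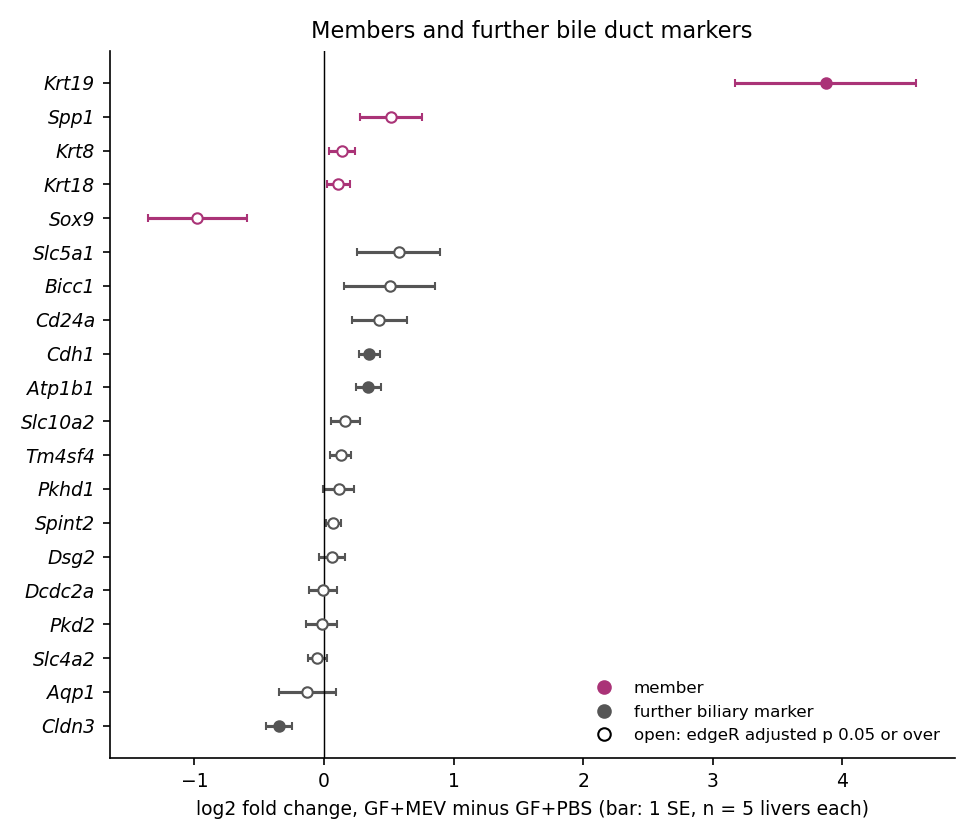
Log2 fold change, GF+MEV minus GF+PBS, with 1 standard error (n = 5 livers each), for the 5 members (purple) and further bile duct markers (grey), filled where the edgeR adjusted p was under 0.05. *Krt19* at 3.87 lies far to the right of all others, *Sox9* at -0.98 is the lowest, and the further markers lie between -0.35 and 0.58.

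In a list of biliary fate factors and genes of Notch and YAP signalling, 4 were called lower, 1 higher and 16 were not called. Notch signalling, through its target *Hes1*, and the coactivator YAP favour duct identity, and HHEX and the FOXA factors act in liver and duct development. Of 25 such genes 21 were tested, 23.8% of them were called beside 7.64% of all tested genes, and their median log2 fold change was -0.04. *Ccn2*, a YAP target also known as connective tissue growth factor, rose from 1.57 ± 0.586 to 4.82 ± 0.875 CPM (SD, n = 5 each, log2 fold change 1.60, edgeR adjusted p = 4.4e-04). Its values were 4.03, 5.04, 4.25, 6.23 and 4.56 CPM in GF+MEV livers and 1.78, 1.40, 0.714, 2.32 and 1.62 CPM in GF+PBS livers, so the groups did not overlap. Other YAP targets and partners did not pass the test, among them *Ccn1* (log2 fold change 0.22, edgeR adjusted p = 0.549), *Ankrd1* (0.47, edgeR adjusted p = 0.355) and *Yap1* itself (0.02, edgeR adjusted p = 0.854). These were named with their values known.

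The genes that fell were transcription factors. *Foxa2* fell from 37.9 ± 5.34 to 13.5 ± 1.88 CPM (SD, n = 5 each, log2 fold change -1.49, edgeR adjusted p = 9.1e-07) and *Foxa1* from 24.0 ± 2.09 to 15.2 ± 0.739 CPM (SD, n = 5 each, log2 fold change -0.66, edgeR adjusted p = 6.4e-05), both without overlap. FOXA1 and FOXA2 open chromatin for liver genes in hepatocytes as well as in duct cells. *Hes1* fell from 10.5 ± 2.33 to 6.72 ± 0.946 CPM (SD, n = 5 each, log2 fold change -0.65, edgeR adjusted p = 0.0169). Like *Sox9*, it was highest in GF+PBS replicates 1 and 3 (13.6 and 11.5 CPM), and without them it did not pass the test (log2 fold change -0.45, edgeR adjusted p = 0.101). *Hhex* was at 32.0, 21.6, 32.0, 73.2 and 15.7 CPM in GF+MEV livers against 72.0 to 106 CPM in GF+PBS livers (log2 fold change -1.35, edgeR adjusted p = 0.0127), with GF+MEV replicate 4 inside the GF+PBS range. *Hhex* was not called with the alike GF+PBS libraries summed (edgeR adjusted p = 0.0602). DESeq2 also called *Heyl*, a Notch target, lower (0.345 to 1.54 CPM in GF+MEV and 1.56 to 2.69 CPM in GF+PBS livers, DESeq2 adjusted p = 0.0466). *Amotl2*, which encodes the YAP-binding protein angiomotin-like 2, was called lower without GF+PBS replicate 1 (edgeR adjusted p = 0.0318) or without replicates 1 and 3 (edgeR adjusted p = 0.0187). This pair was named after the values were seen.

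Genes of progenitor-like or reactive liver epithelium were not called. Of 15, 8 were tested and 0 passed the test by edgeR, DESeq2 or limma-voom, where edgeR called 7.64% of all tested genes. An unadjusted edgeR p under 0.05 was held by 3 of the 8, beside 2572 of all 12147 genes. The median log2 fold change of the 8 genes was 0.39. *Tnfrsf12a*, the TWEAK receptor, was at 7.86 ± 0.676 CPM in GF+MEV and 6.10 ± 0.961 CPM in GF+PBS livers (SD, n = 5 each, edgeR adjusted p = 0.0814) without overlap. It passed the test without GF+PBS replicates 1 and 3 (edgeR adjusted p = 0.0196). Without GF+MEV replicate 2, its highest liver, its log2 fold change was 0.31 in place of 0.36 (edgeR adjusted p = 0.172). *Lgr5*, a receptor that enhances Wnt signalling, was at 5.44 ± 1.18 and 7.02 ± 0.937 CPM (SD, n = 5 each, edgeR adjusted p = 0.174). *Lgals3*, a galectin named after its value was seen, was called without GF+MEV replicate 5 (log2 fold change 0.61, edgeR adjusted p = 0.0397).

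The keratin partner list was drawn up for desmosome, cytolinker and other keratin-binding proteins, and also for other cytoplasmic intermediate filaments. Of its 20 genes 17 were tested, and 1 was called higher and 0 lower (5.88% called, beside 7.64% of all tested genes). At an unadjusted edgeR p under 0.05, 3 were higher and 0 lower, beside 2572 of all 12147 genes in either direction. The median log2 fold change was 0.07. *Eppk1*, which encodes the keratin-binding protein epiplakin, rose (10.3 to 19.7 CPM in GF+MEV and 4.11 to 10.4 CPM in GF+PBS livers, log2 fold change 0.89, edgeR adjusted p = 0.0184), was highest in GF+MEV replicate 2, and shares exon sequence with *BC024139* on the same strand. Without replicate 2 its log2 fold change was 0.75 (edgeR adjusted p = 0.0417). *Sqstm1*, which encodes p62, a keratin-aggregate component in stressed hepatocytes, was at 426 to 454 CPM in GF+MEV and 422 to 488 CPM in GF+PBS livers and was not called. DESeq2 also called *Dst* and *Ywhaz*, as did edgeR for *Ywhaz* without GF+PBS replicate 1 (edgeR adjusted p = 0.0430) and for *Dst* without GF+PBS replicate 5 (edgeR adjusted p = 0.0317), a pair named after the values were seen. Of 45 other keratin genes, 2 were in the table. *Krt23* (log2 fold change -0.41, edgeR adjusted p = 0.294) and *Krt10* (log2 fold change -0.15, edgeR adjusted p = 0.805) were not called by edgeR, DESeq2 or limma-voom, and 0 had an unadjusted edgeR p under 0.05.

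**Figure D4:**
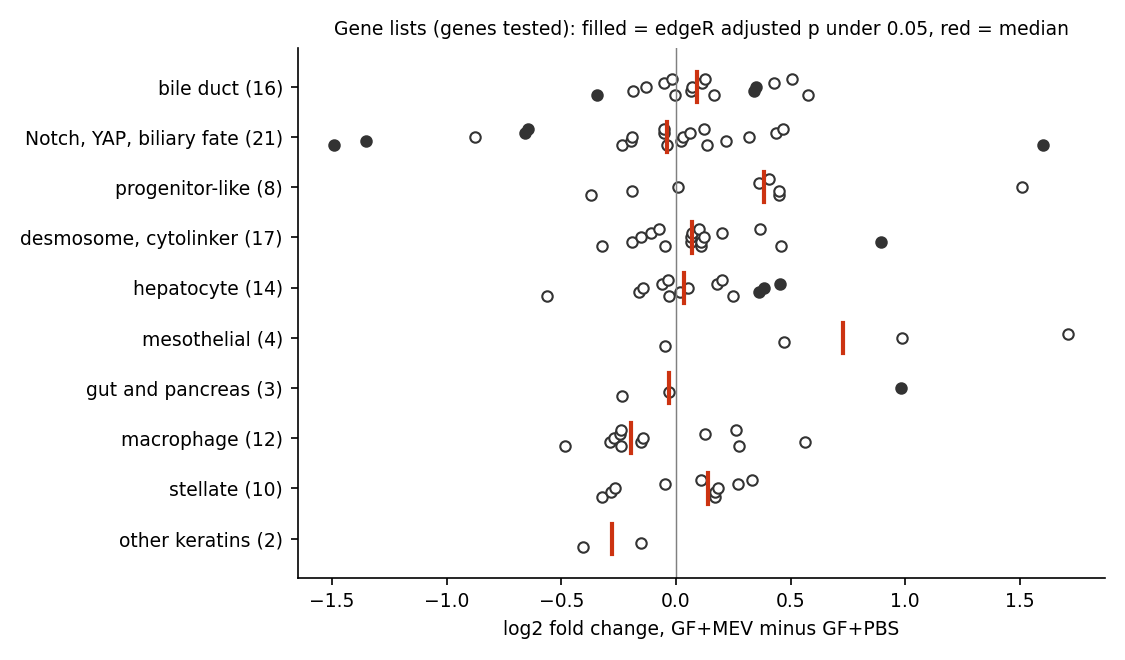
Log2 fold change, GF+MEV minus GF+PBS, of every tested gene of 10 gene lists (number tested in brackets), with filled points for an edgeR adjusted p under 0.05 and red lines for the medians. The biliary fate list holds the largest falls, down to -1.49 for *Foxa2*, and the bile duct list stays between -0.35 and 0.58.

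Markers of other cell types in whole liver were read beside *Krt19*. Of 15 hepatocyte genes 14 were tested, since the symbol *Tf* matched no row. Of the 14 genes, 3 were called higher and 0 lower by each of edgeR, DESeq2 and limma-voom. By edgeR 21.4% were called higher, beside 4.12% of all tested genes. At an unadjusted edgeR p under 0.05, 6 were higher and 0 lower, beside 2572 of all 12147 genes in either direction. The median log2 fold change of the 14 genes was 0.04. Their summed level was 105094 to 123742 CPM in GF+MEV and 107656 to 123214 CPM in GF+PBS livers. *Hnf4a*, the master regulator of the hepatocyte, rose by 0.45 (edgeR adjusted p = 3.6e-04), *Ass1* by 0.36 (edgeR adjusted p = 0.0091) and *Cps1* by 0.38 on the log2 scale (edgeR adjusted p = 0.0414), the last pair being enzymes of the urea cycle. *Cps1* lost its call under 13 of 20 alternatives, among them leaving out any of GF+MEV replicates 1, 3, 4 and 5 or any of GF+PBS replicates 1 to 4, with edgeR adjusted p-values of 0.0532 to 0.105.

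The capsule of the liver is covered by mesothelium, which also makes keratin 19. Of 8 mesothelial genes 4 were tested and 0 were called by edgeR, DESeq2 or limma-voom, where edgeR called 7.64% of all tested genes. An unadjusted edgeR p under 0.05 was held by 1 of the 4, beside 2572 of all 12147 genes. The median log2 fold change of the 4 genes was 0.73. Their summed level, mostly *Dcn*, was 69.7 to 109 CPM in GF+MEV and 85.0 to 96.1 CPM in GF+PBS livers. *Dcn*, which is also on the stellate cell list, was at 84.9 ± 14.2 and 87.9 ± 5 CPM (SD, n = 5 each), so the sum shows little of the other genes. *Msln*, *Upk3b* and *Gpm6a* had log2 fold changes of 1.71, 0.985 and 0.473. *Msln*, which encodes mesothelin, was at 0.854, 1.59, 3.57, 2.13 and 2.89 CPM in GF+MEV livers and at 0.167, 1.12, 0, 1.16 and 0.901 CPM in GF+PBS livers (edgeR adjusted p = 0.0631). *Upk3b*, a uroplakin, was at 0.305, 0.552, 4.63, 1.52 and 3.86 CPM in GF+MEV livers and at 0.167, 1.01, 0.774, 1.57 and 2.10 CPM in GF+PBS livers (edgeR adjusted p = 0.394). The livers highest in *Msln* and *Upk3b* were GF+MEV replicates 3 and 5. Replicate 2, with the most *Krt19*, had 1.59 CPM of *Msln*, above all GF+PBS livers, and 0.552 CPM of *Upk3b*, within their range. The part of mesothelium in the level of *Krt19* was not tested. *Wt1*, *Upk1b*, *Lrrn4* and *Muc16* had no row in the table used here. *Msln* was called without GF+MEV replicate 1 (log2 fold change 1.91, edgeR adjusted p = 0.0384).

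Of 13 gut and pancreas genes 3 were tested and 33.3% were called, beside 7.64% of all tested genes. The called gene, *Lgals4*, which encodes the gut epithelial lectin galectin-4, was higher. It was at 27.9, 48.0, 28.0, 21.2 and 17.3 CPM in GF+MEV livers and at 13.8 to 15.1 CPM in GF+PBS livers (log2 fold change 0.98, edgeR adjusted p = 0.00842), without overlap. As with *Krt19*, replicate 2 was its highest and replicate 5 its lowest GF+MEV liver, and without replicate 2 its log2 fold change was 0.72 (edgeR adjusted p = 0.00353). *Fabp2*, a fatty acid binding protein of the gut, was at 103 to 152 CPM and 121 to 144 CPM and was not called. The gut genes *Vil1*, *Cdx1*, *Cdx2* and *Muc2* and the pancreas genes *Cpa1* and *Pnlip* had no row in the table used here. Without GF+PBS replicate 2, *Cela1*, an elastase, was also called, as lower (log2 fold change -0.35, edgeR adjusted p = 0.0494). The part of such tissue in the level of *Krt19* was not tested.

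Macrophage and stellate cell genes were not called by edgeR, DESeq2 or limma-voom, where edgeR called 7.64% of all tested genes. Of them 0 and 1 had an unadjusted edgeR p under 0.05, beside 2572 of all 12147 genes. Of 13 macrophage genes 12 were tested, with a median log2 fold change of -0.20 and a summed level of 243 to 469.8 CPM in GF+MEV and 288 to 413 CPM in GF+PBS livers. *Clec4f*, a lectin of Kupffer cells, was at 69.7 to 101 CPM and 78.7 to 98.1 CPM. GF+MEV replicate 4 held the most *Cd5l*, a protein secreted by macrophages (149.8 CPM against 62.3 to 91.1 CPM in the rest of its group), and without it *Marco*, *Vsig4*, *Lyz2* and *Cd5l* were called lower, with *Cd5l* at -0.56 on the log2 scale (edgeR adjusted p = 0.0332). All 10 stellate cell genes were tested, with a median log2 fold change of 0.14. Their summed level was 172 to 255 CPM in GF+MEV and 194 to 220.2 CPM in GF+PBS livers. Over all lists 13 of 104 genes were called, 8 higher and 5 lower, a share of 12.5% beside 7.64% of all tested genes. The lists were drawn up with earlier results known, so that this difference is a description.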

How the data were processed

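The authors aligned reads of liver RNA to the mouse genome GRCm38 with STAR 2.7.3a, counted them per gene with HTSeq and filtered out genes with less than 20 counts in all samples together. Of the 12148 genes in the table, 44 had under 100 counts over the 10 livers, so a stricter filter than the stated one may have been applied. What they deposited are raw counts, not normalized, for Ensembl gene identifiers. Whether the counting used strand is not given in the sources used here. The table also held 5 columns that match no described sample, and these were not used. Symbols, positions and exon lengths came from GENCODE vM21 on GRCm38, and 10 identifiers had no symbol.

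A minimum of 20 counts over the 10 livers was set, and the genes were tested with edgeR 4.0.16 in R 4.3.3 (TMM, quasi-likelihood fit on the group alone, Benjamini-Hochberg adjustment, threshold 0.05), which left 12147 of 12148. CPM used TMM-scaled library sizes, and CPM per kb used the union of annotated exons. Log2 fold changes are estimates of the edgeR fit unless another tool is named. Their standard errors were taken from the spread of log2 CPM (prior count 2) between livers, not from that fit. They are errors of a difference in mean log2 CPM, which can be of another size where reads are few. The profiles compared with *Krt19* used the same log2 CPM. Alternatives were DESeq2 1.42.0, limma-voom (limma 3.58.1), other normalizations, no filter, at least 10 counts in every library, a replicate block and leaving out every liver singly. Chosen with the data in view were summing GF+PBS replicates 1 with 3 and 4 with 5, and leaving out replicates 1 and 3. The fits were tested on simulated data. Precision is limited by depth for genes with few reads, such as *Krt19* and *Sox9*, whose read numbers are given. Beyond strain, germ-free state, tissue and treatment, the labels give only a number for each mouse, so p-values measure the spread between these samples.

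The members, the gene lists and the rule for named genes were written with earlier results of these data known. The rule named the members, all called genes of a list (up to 6), the 2 genes of each list with the highest mean CPM, the 5 genes nearest to *Krt19*, and genes whose exons overlap a member. Some genes of the bile duct list count in its totals but are not reported here by name.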

Additional observations from a re-analysis of the deposited data

Results flagged for a closer look

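In 78 groups of 5 values from 39 named genes, 4 held a liver far from the others by Dixon's ratio (95% critical value), where chance flags about 1 in 20 groups and so 3.9 of 78. *Spp1* was at 61.1 CPM in GF+MEV replicate 2 and at 25.7 to 33.9 CPM in the other 4 GF+MEV livers. *Hhex* was at 73.2 CPM in GF+MEV replicate 4 against 15.7 to 32.0 CPM in the rest of its group. *Tnfrsf12a* reached 9.04 CPM in GF+MEV replicate 2 against 7.32 to 7.75 CPM, and *Krt23* 11.8 CPM in GF+MEV replicate 1 against 6.06 to 7.0 CPM.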

How the results depend on the processing

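The member count called fell from 1 to 0 with at least 10 counts required in every library, which left *Krt19* and *Sox9* untested by construction. The number of genes called was 928, went from 561 with the alike GF+PBS livers summed to 1201 with DESeq2, and ran from 696 to 926 with each liver left out. Of the called genes, 53.9% were higher with TMM, 41.2% with upper-quartile scaling and 32.5% with library size alone, which moved the median of all genes to -0.08. The log2 fold changes of *Krt8* (0.06 to 0.18), *Krt18* (0.03 to 0.15), *Spp1* (0.25 to 0.62) and *Sox9* (-1.18 to -0.47) kept their signs in all alternatives. The median of the mesothelial list became -0.05 with at least 10 counts in every library, where fewer of its genes were tested, and those of the keratin partner and hepatocyte lists -0.01 and -0.04 with library size alone. Without GF+PBS replicates 1 and 3, *Cldn3*, *Atp1b1*, *Hes1*, *Eppk1*, *Cps1* and *Ass1* lost their calls (edgeR adjusted p = 0.059 to 0.206), *Amotl2* and *Dsc2* were called lower and *Ywhaz* and *Tnfrsf12a* higher (edgeR adjusted p = 0.0187 to 0.0365), and the cause was not tested. With the alike GF+PBS livers summed, *Cldn3*, *Atp1b1*, *Hhex* and *Cps1* lost their calls (edgeR adjusted p = 0.0602 to 0.107), and with library size alone *Ttr* was called lower (edgeR adjusted p = 0.0375). Replicate numbers did not pair the livers (same-number correlations -0.188 to 0.166, and 2 of 5 livers correlated best with their own number). With the replicate block, 792 genes were called, the log2 fold change of *Krt19* was 3.71, and *Cps1* lost its call (edgeR adjusted p = 0.0705). Few reads limit the precision for *Krt19* in GF+PBS livers (6 to 13), *Sox9* (8 to 50 a liver), *Msln* (0 to 74) and *Upk3b* (3 to 96). The same holds in GF+PBS livers for *Ccn2* (12 to 46), *AA986860* (7 to 23) and *Tff3* (11 to 19). *Heyl* had 5 to 29 reads in GF+MEV and 26 to 48 in GF+PBS livers, and *Gpm6a* 7 to 42 and 9 to 25.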
